A study of Macaca mulatta with 12 samples.

Results

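A set of 4 genes of platelets and red cells was followed through a single-cell survey of blood B cells: PPBP, PF4 and TUBB1 of platelets and HBA, a row for alpha globin. They were chosen by name, as 4 of the 22584 rows of the expression table. The blood came from 6 healthy, unmanipulated rhesus macaques of Indian origin, juveniles of 2 to 3 years, of which 2 were males sequenced as batch 1 and 4 were females sequenced as batch 2. Sex and batch therefore cannot be told apart. Each animal gave mononuclear cells, a gene expression library and a B cell receptor (BCR) library made from it. No group was treated, and the comparisons below are between classes of cells within animals, apart from that of the males with the females.

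Platelets carry no nucleus but keep RNA from the megakaryocytes that shed them. PPBP and PF4 encode chemokines that platelets store in alpha granules, and TUBB1 encodes the beta tubulin of the ring of microtubules under the platelet membrane. Alpha globin pairs with beta globin in adult haemoglobin and is made in red cell precursors. In droplet sequencing such RNA can enter a B cell's droplet with a bound or co-captured cell or as free RNA in the suspension, and free RNA gives its genes a like low share in all cell types.

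Of 13849 cells in the table, the authors gave 13324 a B cell subtype name, out of 12 such names. The other 525 were in a cluster that the authors named Contamination, and were left out unless stated. B cells per animal numbered 563 to 3048, and their summed unique molecular identifiers (UMIs) 3563778 to 19518978. The median per B cell was 4079 and 4018 UMIs in males 1 and 2, and 5770 to 6736 in the females. The same cell barcode occurred in more than 1 library for 96 barcodes, or 193 cells. A label transferred from a reference, deposited with the cells, called 9 cells platelets. Of these, 7 were in the cluster Contamination and held at most 1 UMI of the 3 platelet genes together. The other two were annotated B cells. One, of male 2, held 14 PPBP, 5 PF4, 1 TUBB1 and 4 HBA UMIs among 2469, and the other, of female 1, held 11 PPBP, 17 PF4, 3 TUBB1 and 4 HBA UMIs among 2139. No sequence of the 4 genes was at hand, so none is printed for them.

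PPBP was the most abundant of the 4 in B cells, with 4965 UMIs in 1956 cells. PF4 followed with 3364 UMIs in 1405 cells, and TUBB1 was rare, with 270 UMIs in 190 cells. HBA had 3799 UMIs in 1128 cells, but 1861 of them lay in 6 cells of male 2, which are described further on and are called globin-high. PPBP stood at 5.21 and 25.8 raw CPM (UMIs of the gene scaled to the total UMIs of the same cells, with no further normalization) in males 1 and 2, against 84.3, 120, 66.9 and 96.8 in females 1 to 4. PF4 stood at 2.45 and 14.2 raw CPM in the males, against 64.0, 47.2, 66.1 and 42.4 in the females. TUBB1 stood at 0.306 and 0.852 raw CPM in the males, against 5.65, 3.15, 5.02 and 5.05 in the females. For each platelet gene both males lay below all 4 females, and male 1 was the lowest animal. HBA stood at 4.90 and 183 raw CPM in the males, against 15.8, 33.6, 25.5 and 55.3 in the females. Without the globin-high cells male 2 was at 39.3 raw CPM, within the range of the females.

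**Figure D1:**
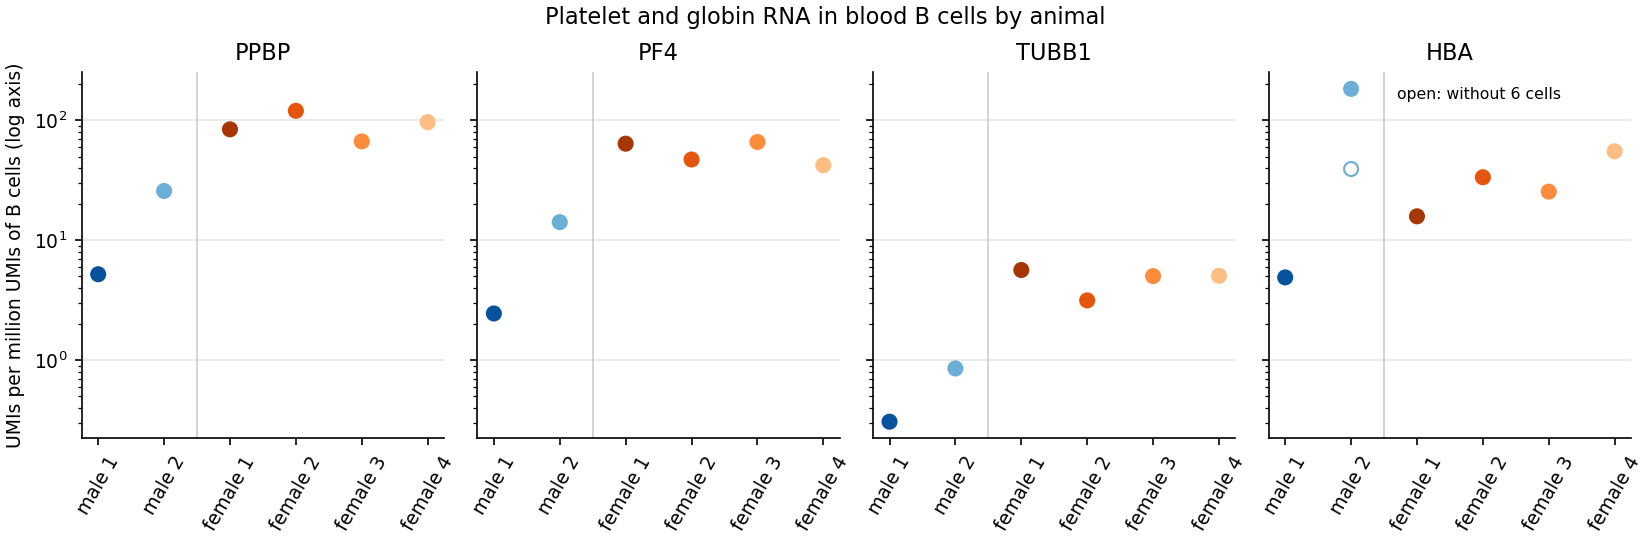
Level of each gene in B cells in raw CPM (log axis), 1 point per animal, males left of the line and females right of it; the open circle is male 2 without the 6 globin-high cells. For PPBP, PF4 and TUBB1 both males lie below the 4 females, while for HBA male 2 is at 183 with and 39.3 without those cells.

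Summed over all B cells and tested between the sexes, PPBP had a log2 difference of -2.38 ± 0.59 (males minus females, SE, 2 against 4 animals). PF4 had -2.55 ± 0.61 and TUBB1 -2.83 ± 0.59. None of the 4 passed the test, which called 0.34% of 11180 genes (edgeR's quasi-likelihood test, Benjamini-Hochberg adjusted p = 0.123 for PPBP, 0.12 for PF4 and 0.1 for TUBB1). Groups did not overlap for 29.1% of all genes tested, and for 14.4% with the males lower. DESeq2 called 5.43% of these genes, 2.89% as lower in males, and among them the 3 platelet genes, with adjusted p of 0.00044 for PPBP, 0.00035 for PF4 and 0.00059 for TUBB1. With male 2 left out edgeR called 0.155% of genes (0.0258% lower), among them PPBP (adjusted p = 0.033) and PF4 (adjusted p = 0.03). That fit sets 1 male against 4 females, takes its spread from the females and assumes that the lone male varies as they do. With female 2 left out it called 1.23% of genes (0.462% lower), among them TUBB1 (adjusted p = 0.046). HBA had a log2 difference of 1.72 ± 0.99 (edgeR, adjusted p = 0.396), which turned to -0.37 without the globin-high cells. The males also had fewer UMIs per cell, and sex, batch and depth cannot be told apart here.

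Platelet RNA was detected in a minority of B cells. At least 2 of the 3 platelet genes were detected in 880 of 13324 B cells, or 6.60% (exact 95% interval 6.19 to 7.04, counting error alone), here called platelet co-detected. Of these, 121 held all 3 genes. A single platelet gene was found in 1670 cells, 1322 of them with 1 UMI, and 10774 cells, called platelet-negative, held none. The 880 cells held 73.5% of the 8599 platelet UMIs, and 182 of the 184 cells with 10 or more platelet UMIs were co-detected. Both values are descriptions, since UMIs of the same 3 genes chose the cells. The weakest of the 880 cells rested on little, since 185 had exactly 2 UMIs. The highest cell, an M-MBC 1 cell of female 1, held 44 PPBP and 51 PF4 UMIs, 2.07% of its 4596 UMIs. Its barcode also had a BCR contig, as did those of the other 9 of the 10 highest cells. In the cluster Contamination 19 of 525 cells were co-detected, or 3.62% (2.19 to 5.59). Those cells were shallower, with a median of 1931 UMIs against 5349 in B cells, and 196 of them came from male 2, so the pooled shares are not on the same footing. Within animals, co-detected cells made up 8.93% of Contamination and 9.87% of B cells in female 1, and 5.21% and 10.5% in female 3, the females with the most such cells.

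Depth and quality measures of co-detected and platelet-negative cells differed by less than their spread between animals. In the 5 animals with 10 or more co-detected cells, the median UMIs per cell averaged 5726 ± 1045 in co-detected cells and 5742 ± 1040 in platelet-negative cells (SD over animals). Mitochondrial genes took 2.51% ± 0.49 of UMIs in co-detected cells and 2.56% ± 0.53 in platelet-negative cells. A BCR contig was present for 91.9% ± 4.61 of co-detected cells and for 91.6% ± 3.04 of platelet-negative cells. Of the barcodes shared between libraries, 10 cells were co-detected.

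Each pair of the 4 genes met in the same cell more often than the separate frequencies gave, counted within animals and within 10 depth classes of their cells. PPBP and PF4 were both present in 850 cells, against 295.5 expected, PPBP and TUBB1 in 132 against 38.8, and PF4 and TUBB1 in 140 against 28.8. The ratio of observed to expected for PPBP and PF4 was 2.38 to 2.86 in the 4 females, 8.73 in male 2 and 29.0 in male 1, where 9 cells held both against 0.31 expected. HBA met PPBP in 440 cells against 198.9 expected, PF4 in 395 against 137.4 and TUBB1 in 110 against 19.0. HBA and PPBP were above expectation in 6 of 6 animals, by 1.85 to 5.36 times, and HBA and PF4 by 2.46 to 7.57 times. HBA and TUBB1 were above it in 5 of 6, since male 1 had 4 TUBB1 cells and none with HBA. An exact sign-flip permutation test over the 6 animals, two-sided, gave p = 0.031, the smallest it can give, and an adjusted p of 0.0375 over the 6 pairs, for each pair but HBA and TUBB1 (adjusted p = 0.0625). With cells thinned to 2000 UMIs the 3 pairs without TUBB1 were above expectation in 6 of 6 animals and those with TUBB1 in 5 of 6, and every pair had an adjusted p of 0.0625. With 2 UMIs required of each gene the pairs without TUBB1 were above it in 6 of 6 animals (adjusted p = 0.0625 in the exact test) and those with TUBB1 in 4 of 6 (adjusted p = 0.125). No cell of males 1 and 2 held more than 1 TUBB1 UMI, so under that rule these animals could show no excess in a pair with TUBB1.

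**Figure D2:**
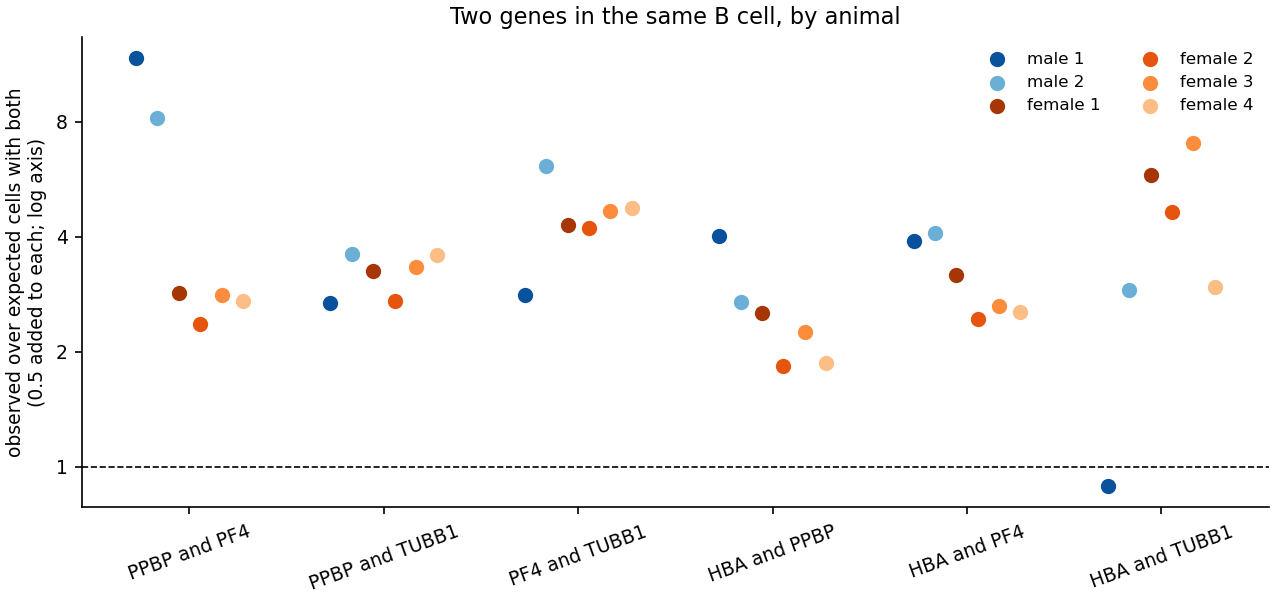
Cells holding both genes of a pair over the number expected from their separate frequencies within an animal and depth class (log axis, 0.5 added to both), 1 point per animal. All points lie above the dashed line of no excess except HBA and TUBB1 in male 1, with 0 cells observed.

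The share of cells with HBA climbed with the number of platelet genes in the cell. It was 5.66% (exact 95% interval 5.23 to 6.11) of cells with 0 platelet genes, 10.8% (9.39 to 12.4) with 1, 32.5% (29.2 to 36.0) with 2 and 74.4% (65.6 to 81.9) with 3. Median UMIs per cell in these classes were 5150.5, 6065.5, 6149 and 6322. Within the females the share with 3 platelet genes was 62.2%, 92.9%, 78.3% and 81.8%, against 3.52%, 8.47%, 5.07% and 11.7% with 0. The same order held in every animal for the classes of 10 or more cells. The level of HBA moved alike, at 13.1 raw CPM with 0 platelet genes, 24.2 with 1, 102 with 2 and 419 with 3, the globin-high cells left out.

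**Figure D3:**
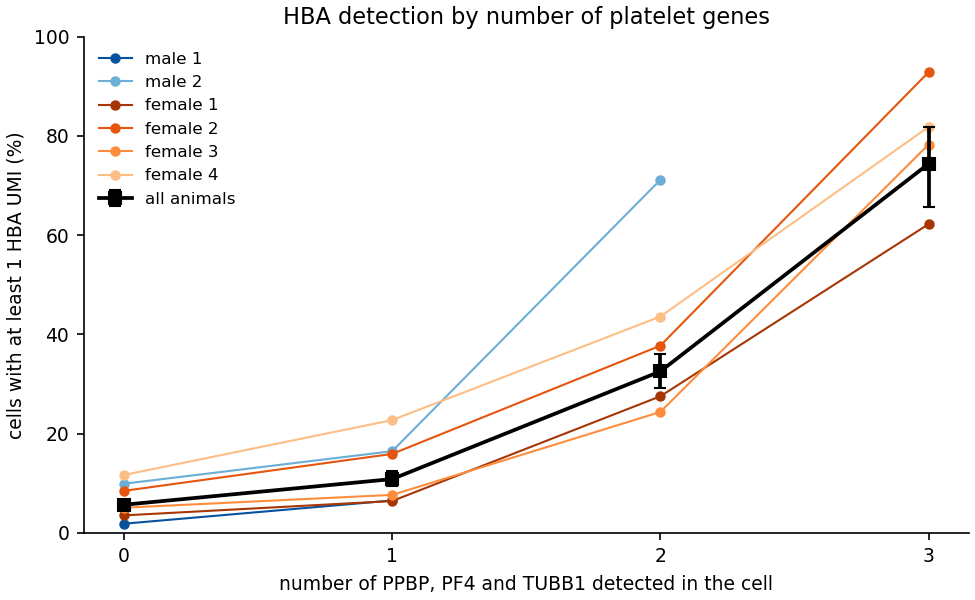
Percent of B cells with at least 1 HBA UMI by the number of platelet genes detected, per animal (classes of 10 or more cells) and over all animals (black, with exact 95% binomial intervals). The share over all animals runs 5.66%, 10.8%, 32.5% and 74.4%.

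Compared with platelet-negative cells of the same animals, the co-detected cells carried a broad set of other platelet transcripts and HBA, and no B cell marker tested was called. Counts were summed per animal and class in 5 animals, male 1 having 9 co-detected cells, and the 3 genes that chose the cells were left out of the test. HBA was at 95.5, 163, 176 and 303 CPM (normalized, over the genes tested) in co-detected cells of females 1 to 4 and 604 in those of male 2, against 7.16, 17.2, 10.7, 39.0 and 244 in platelet-negative cells. It was higher in co-detected cells of every animal, and the highest platelet-negative value, 244, is that of the animal with the globin-high cells. HBA rose by 2.87 ± 0.18 on the log2 scale (edgeR's quasi-likelihood test, adjusted p = 9.22e-19). Of 8791 genes tested 50, or 0.569%, were called, 48 higher (0.546%) and 2 lower. Without the globin-high cells the log2 difference of HBA was 3.68, and without male 2 it was 3.57. Without the animal as a block it was 1.99 and not called.

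Of the 46 other genes of a platelet list, 20 passed the filter on low counts and 14 were higher, none lower. Of the 14, TREML1, GP9, MPIG6B, CAVIN2, PF4V1, ITGA2B and RGS18 averaged 0.186 to 1.90 CPM in platelet-negative cells. THBS1, F13A1 and GNG11 averaged 3.06 to 3.32 CPM there. These genes passed the filter through the co-detected cells, where they are high, so the count over the 20 is a description. With no filter on low counts 28 of 42 were higher. The lists were chosen with these data known. The receptors and membrane proteins TREML1, a receptor of the alpha granule membrane, MPIG6B, an inhibitory receptor of megakaryocytes, and GP9, a subunit of the receptor for von Willebrand factor, had log2 differences of 7.06 ± 0.30, 6.25 ± 0.26 and 5.67 ± 0.46. TREML1 averaged 45.2 ± 14.4 CPM in co-detected cells and 0.266 ± 0.297 in platelet-negative cells (SD, n = 5), where it had 12 UMIs in all. GNG11, a G protein gamma subunit, stood at 94.3, 164, 42.3, 198 and 409 CPM in co-detected cells of females 1 to 4 and male 2, against 2.86, 2.43, 0.752, 7.22 and 3.33 in platelet-negative cells. RGS18, a regulator of G protein signalling, rose by 5.29 ± 0.19 and CAVIN2, a protein of caveolae, by 5.92 ± 0.22. NRGN, which encodes the calmodulin-binding neurogranin, averaged 360 ± 137 CPM in co-detected cells and 24.7 ± 8.65 in platelet-negative cells. THBS1, which encodes the granule protein thrombospondin, rose by 3.87 ± 0.28 and F13A1, a subunit of clotting factor XIII, by 3.28 ± 0.27. PF4V1, at 5.82 ± 0.18, is a close copy of PF4, and the counting could have split UMIs between them. All of these were higher in 5 of 5 animals.

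Genes were ranked by size of change only if their log2 CPM averaged at least 4 and every animal went the same way. SMIM1, which carries the Vel blood group antigen, led the ranked genes off every list (log2 difference 2.77 ± 0.15). CD9, a tetraspanin of platelets and other cells (1.58 ± 0.13), and HACD4, an enzyme of fatty acid elongation (1.51 ± 0.20), came next. Rarer genes off the lists, below that floor, rose more, such as TMEM158 (5.55 ± 0.22), AQP3 (4.01 ± 0.28) and SLC40A1 (4.00 ± 0.32). MYL9, a myosin light chain on the platelet list, had 2.04 ± 0.21. CST3, the protease inhibitor cystatin C, on the monocyte list, rose by 2.55 ± 0.21, from a list of which 5 of 11 genes were tested and no other was called. TYROBP, the monocyte list gene with the next smallest p, had -0.10 ± 0.07 (edgeR, adjusted p = 1.00). The summed monocyte list stood at 383 to 662 raw CPM in co-detected cells and at 346 to 593 in platelet-negative cells, with no gene of it at 0. No gene of the lists of T cells (8 tested), NK cells (4), dendritic cells (1) or B cells (7) was called. The B cell gene BANK1, which encodes an adaptor of B cell receptor signalling, had 0.12 ± 0.05. GNLY and GZMB of the NK list had 0.56 ± 0.20 and 0.31 ± 0.18, and the summed NK list stood at 23.7 to 536 raw CPM in co-detected cells and at 22.9 to 232 in platelet-negative cells. CD3E and CD3D of the T cell list had -0.48 ± 0.18 and -0.15 ± 0.14, and the summed list stood at 90.9 to 158 raw CPM in co-detected cells and at 98.2 to 330 in platelet-negative cells. Of 8 neutrophil genes in the table all were at 0 in co-detected cells. The part of these other cell types in the result was not tested. The 2 genes lower in co-detected cells were MED14, a Mediator subunit (-0.43 ± 0.10, lower in 5 of 5 animals), and, named after its value was seen, JCHAIN, the joining chain of polymeric antibodies (-0.94 ± 0.13, lower in 4 of 5).

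**Figure D4:**
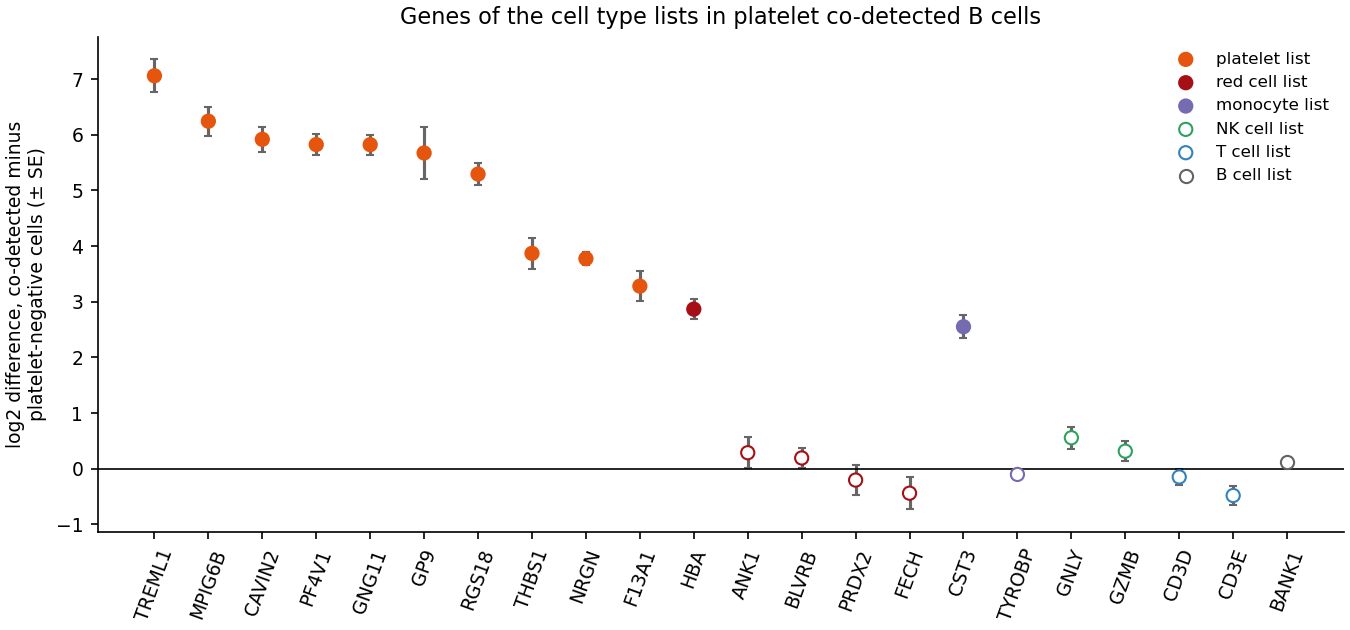
Log2 difference ± SE of platelet co-detected against platelet-negative B cells for genes of the cell type lists, picked by smallest p within each list; filled points passed an adjusted p of 0.05 (edgeR). The 10 platelet genes lie between 3.28 and 7.06, HBA at 2.87, and other red cell genes near 0.

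SMIM1, named above, is also a red cell surface protein and was not on the red cell list. Of 44 genes on that list, 11 passed the filter on low counts and HBA was the 1 called. FECH, an enzyme of haem synthesis, had a log2 difference of -0.44 ± 0.29, the membrane skeleton gene ANK1 0.29 ± 0.28, BLVRB 0.19 ± 0.18 and the antioxidant gene PRDX2 -0.21 ± 0.28, none called. HBB, the name of beta globin, was on the list, but no row of that name was found. A second alpha globin row, HBA1, held 2 UMIs in all cells. Since copies of alpha globin are near-identical, the counting could have split their UMIs between rows.

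The cells with at least 1 HBA UMI were then compared with those with none, HBA itself left out of the test. PPBP was at 510, 430, 258 and 318 CPM in HBA-detected cells of females 1 to 4 and at 69.0 and 118 in those of males 1 and 2, against 55.7, 79.7, 58.2, 66.9, 4.64 and 17.8 in HBA-negative cells. PF4 was at 410, 198, 338 and 164 CPM in HBA-detected cells of the females and at 43.9 and 79.5 in those of the males, against 40.3, 26.3, 48.7, 22.7, 1.82 and 7.14. Each was higher in HBA-detected cells of 6 of 6 animals. PF4 rose by 3.09 ± 0.10 and PPBP by 2.61 ± 0.11 (edgeR, adjusted p = 2.56e-17 and 1.09e-14), in a comparison that called 3.79% of 8840 genes, 216 higher (2.44%) and 119 lower (1.35%). TUBB1 did not pass the filter on low counts. Of 49 platelet genes listed, 20 passed the filter and 14 were higher, among them MPIG6B (4.11 ± 0.25), CAVIN2 (3.95 ± 0.23), GNG11 (3.41 ± 0.18) and NRGN (2.37 ± 0.15). MPIG6B and CAVIN2, at 1.58 and 2.30 CPM in HBA-negative cells, passed the filter through the HBA-detected cells, so this count too is a description.

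The other red cell genes were then examined. Of 10 red cell genes tested 0 were called by edgeR and 0 by DESeq2, and 0 also at an unadjusted p under 0.05 in either. FECH came nearest, at a log2 difference of -0.49 ± 0.25. SLC25A37, BLVRB, SLC25A39, TFRC and PRDX2 had log2 differences of -0.19 to 0.29. The 33 listed red cell genes in the table, HBA left out, summed to 162 to 262 raw CPM in HBA-detected cells and to 147 to 277 in HBA-negative cells, over 6 animals without the globin-high cells. ALAS2, the first enzyme of haem synthesis in red cell precursors, met HBA in 12 cells against 6.79 expected, AHSP, the chaperone of alpha globin, in 6 against 3.18, and HBQ1, another globin of the alpha cluster, in 21 of 51 cells against 5.96. These counts are small, and no test was run on them.

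The count of genes called in HBA-detected cells changed with the handling of subtypes. With sums per subtype and subtype as a second block 18 of 4896 genes were called, and without C-MBC 2 cells 100 of 8640. PPBP and PF4 were called in both. Without male 2 the count was 166 genes and without female 3 it was 210. Without the animal as a block 5 genes were called, PPBP (2.61) and PF4 (3.08) not among them. Ranked with the same floor on log2 CPM, the leading genes off the lists were SMIM1 (1.88 ± 0.14), the LIM domain gene CRIP2 (1.74 ± 0.22) and SSBP3 (1.25 ± 0.15). Rarer genes off the lists, below that floor, rose more, such as NHERF2 (2.69 ± 0.34), ZP3 (2.33 ± 0.34) and SEPTIN3 (1.90 ± 0.22). Lower in HBA-detected cells were ADRB1, the beta-1 adrenergic receptor (-0.96 ± 0.17), the sialyltransferase gene ST6GALNAC3 (-0.91 ± 0.20), TCL1A, an AKT co-activator of naive B cells (-0.83 ± 0.19), and the inhibitory receptor LILRB1 (-0.76 ± 0.11). CD22 was lower (-0.37 ± 0.08), out of 7 B cell genes tested with a median of -0.12. Of 9 T cell genes tested, with a median of 0.07, CD3D and CD3G were higher (0.50 ± 0.10 and 0.48 ± 0.13). Of 4 NK genes tested, with a median of 0.48, GZMB and NKG7 were higher (0.88 ± 0.17 and 0.64 ± 0.18). CST3 was higher (1.69 ± 0.23), but the 5 monocyte genes tested had a median of -0.24. No other gene of these 4 lists was called, and TYROBP had -0.24 ± 0.07, lower in 6 of 6 animals. The summed T cell list stood at 84.8 to 274 raw CPM in HBA-detected cells and at 95.1 to 323 in HBA-negative cells, and the NK list at 27.7 to 492 and at 22.2 to 275. The part of these markers in the result was not tested.

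To find the genes most like each member, detection in the same cell was scored as an odds ratio within animals and depth classes, for genes found in 100 or more B cells. For PPBP the 8 highest were TREML1 (26.8), MPIG6B (18.2), CLEC1B, the platelet receptor for podoplanin (18.1), CAVIN2 (13.9), PF4V1 (13.8), GNG11 (13.5), RGS18 (12.1) and TMEM158 (11.6), while 99% of 11196 genes lay below 1.44. PF4 was led by TREML1 (27.6), MPIG6B (22.4), TUBB1 (20.3), CAVIN2 (19.0), PF4V1 (16.2), TMEM158 (16.1), SEPTIN5 (16.0) and CLEC1B (15.0). TUBB1 was led by TREML1 (45.1), CAVIN2 (40.1), MPIG6B (33.8), TMEM158 (32.8), SEPTIN5 (28.4), AQP3 (26.9), GNG11 (24.9) and RGS18 (20.5). For HBA the 8 highest were TREML1 (23.4), MPIG6B (16.2), TUBB1 (16.1), TMEM158 (12.4), CAVIN2 (12.3), the water and glycerol channel gene AQP3 (11.8), GNG11 (9.19) and RGS18 (8.65). Other red cell genes found in 100 or more cells had odds ratios with HBA of 0.697 for FECH to 1.23 for PRDX2. Over 67 sums of animal and subtype, centred per animal, the log2 levels of PPBP were most like those of NRGN (Pearson r = 0.77), PF4 (0.76) and GNG11 (0.69), followed by ITPKC (0.67) and RBM23 (0.65). PF4 was most like HVCN1 (0.76), PPBP (0.76), RBM23 (0.75), GNG11 (0.74) and PF4V1 (0.74). HBA was most like PSMB3 (0.74), GTF2A2 (0.72), TBC1D17 (0.71), DEXI (0.71) and ERH (0.71). These sums share libraries and differ in size, so the values describe these data only.

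Across the annotated subtypes platelet RNA was found in similar shares of cells when depth was not matched. PPBP was found in 18.6% ± 13.9 of C-MBC 2 cells at the top and in 13.99% ± 6.45 of antibody-secreting cells (3 animals) and 7.88% ± 8.24 of Naive B cells 3 (4 animals) at the bottom, and the other 9 subtypes lay between 14.9% and 18.2% (mean ± SD over animals). Neighbours in that order differed by less than their spread between animals. The share of co-detected cells was 5.43% to 8.74% in 11 subtypes and 2.38% ± 4.12 in antibody-secreting cells. In cells thinned to the same depth, PPBP was found in 11.6% ± 13.6 of Naive B cells 3 and 9.82% ± 6.86 of M-MBC 1. At the bottom were M-MBC 2, at 4.82% ± 2.93, and antibody-secreting cells, at 0%. The remaining subtypes lay between 6.71% and 9.63%. The co-detected share after thinning was 11.6% ± 13.6 in Naive B cells 3 and 4.58% ± 3.49 in M-MBC 1. It was 1.63% ± 1.38 in M-MBC 2 and 0% in antibody-secreting cells. Naive B cells 3 then had 5 to 19 cells per animal. By level PPBP stood at 150 ± 194 raw CPM in Naive B cells 3 (4 animals) and at 25.2 ± 20.9 in antibody-secreting cells (3 animals), the ends of the order, and at 103 ± 83.4 in M-MBC 1, 94.2 ± 66.1 in Activated B cells and 46.3 ± 25.7 in CD11c+ MBC 2. Set against the mean of the other subtypes within animals, PPBP was 0.63 ± 0.20 higher on the log2 scale in Activated B cells and 0.59 ± 0.18 higher in M-MBC 1, in each case in 6 of 6 animals. PF4 was 0.80 ± 0.25 higher in Activated B cells (6 of 6 animals) and 0.75 ± 0.22 in M-MBC 1 (5 of 6). Without female 3 PF4 in M-MBC 1 was at 1.69, and over all animals left out in turn PPBP ran from 0.49 to 0.74 in Activated B cells and from 0.43 to 0.91 in M-MBC 1, and PF4 from 0.73 to 1.20 in Activated B cells. Leaving out co-detected cells brought Activated B cells to 0.22 for PPBP and -0.04 for PF4 (4 of 6 animals each), and M-MBC 1 to 0.55 for PPBP (6 of 6) and 0.64 for PF4 (5 of 6). The subtype names rest on expression in these cells, and the differences are therefore given as descriptions with no test. PF4 made up 43.2% of the PPBP and PF4 UMIs in female 1, 28.2% in female 2, 49.7% in female 3, 30.4% in female 4, 32.0% in male 1 and 35.5% in male 2. Exact 95% intervals of females 1 and 3 (41.3 to 45.1 and 47.8 to 51.7) overlapped neither each other nor that of any other animal except male 1 (23.0 to 42.1), which overlapped that of female 1. These intervals treat UMIs as independent, although many lie in a few cells, and each animal is 1 library, so a difference between animals was not tested. Across subtypes with 30 or more such UMIs the share ran from 39.1% to 47.4% in female 1, 23.7% to 36.3% in female 2, 41.1% to 55.0% in female 3, 21.4% to 37.0% in female 4 and 21.2% to 50% in male 2.

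By share of cells without thinning, HBA was less even across subtypes. It was found in 30.4% ± 13.0 of C-MBC 2 cells, then in 16.1% ± 13.1 of CD11c+ MBC 2, 14.1% ± 8.53 of C-MBC 1, 11.6% ± 2.34 of antibody-secreting cells (3 animals), 10.5% ± 5.12 of Activated B cells, 9.80% ± 7.61 of M-MBC 2, 8.25% ± 5.30 of M-MBC 1, 8.05% ± 4.94 of M-MZL BC, 6.72% ± 3.83 of CD11c+ MBC 1, 6.04% ± 3.19 of Naive B cells 1, 5.85% ± 3.99 of Naive B cells 2 and 1.32% ± 2.63 of Naive B cells 3 (4 animals). The step from C-MBC 2 to the next subtype was 14.2 percentage points, larger than its SD, and every later neighbour lay within its spread except Naive B cells 3, 4.53 points below Naive B cells 2. Per animal, 32.7%, 22.5%, 27.5% and 40.4% of C-MBC 2 cells of females 1 to 4 and 11.2% and 47.9% of those of males 1 and 2 held HBA, against 6.00%, 13.7%, 7.78%, 15.1%, 1.68% and 10.1% of their other B cells (globin-high cells left out here). C-MBC 2 was higher in all 6 animals, although the ranges of both classes overlap between animals.

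C-MBC 2 was also the higher class in cells without platelet RNA. Among platelet-negative cells HBA was found in 27.1% ± 12.8 of C-MBC 2 and in 5.71% ± 3.24 of other B cells, higher in 6 of 6 animals, and 104 of the 144 HBA-detected C-MBC 2 cells were platelet-negative. Counts per cell were low, with 1 UMI in 80 of the 144 cells and at most 11. C-MBC 2 cells were also deeper, with a mean of animal medians of 7412 UMIs. Thinned to 2000 UMIs per cell, HBA was found in 10.8% ± 9.37 of C-MBC 2 and in 4.15% ± 2.44 of other B cells. C-MBC 2 was again higher in 6 of 6 animals, but hardly so in female 3 (4.44% against 3.88%) and female 4 (7.69% against 7.52%). The gap was widest in male 2 (28.7% against 4.37%). By level, C-MBC 2 held 83.9 ± 73.9 HBA raw CPM and other B cells 26.4 ± 16.7. The log2 difference from the mean of the other subtypes was 1.76 ± 0.42 (6 of 6 animals), 2.00 without the globin-high cells and 2.45 without co-detected cells. With 1 animal left out it ran from 1.51 to 2.51, the highest without female 3. For PPBP the log2 difference was -0.21 ± 0.23 (higher in 2 of 6 animals) and for PF4 -0.13 ± 0.30 (3 of 6), which was 0.61 without female 3. In CD11c+ MBC 2 and C-MBC 1 the log2 differences of HBA were 0.20 ± 0.44 and 0.45 ± 0.44. Without female 3 they were 1.08 and 0.85, and without female 4 that of CD11c+ MBC 2 was -0.04. M-MBC 1 led by level, at 206 ± 428 raw CPM, and fell to 30.8 ± 19.7 without the globin-high cells.

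**Figure D5:**
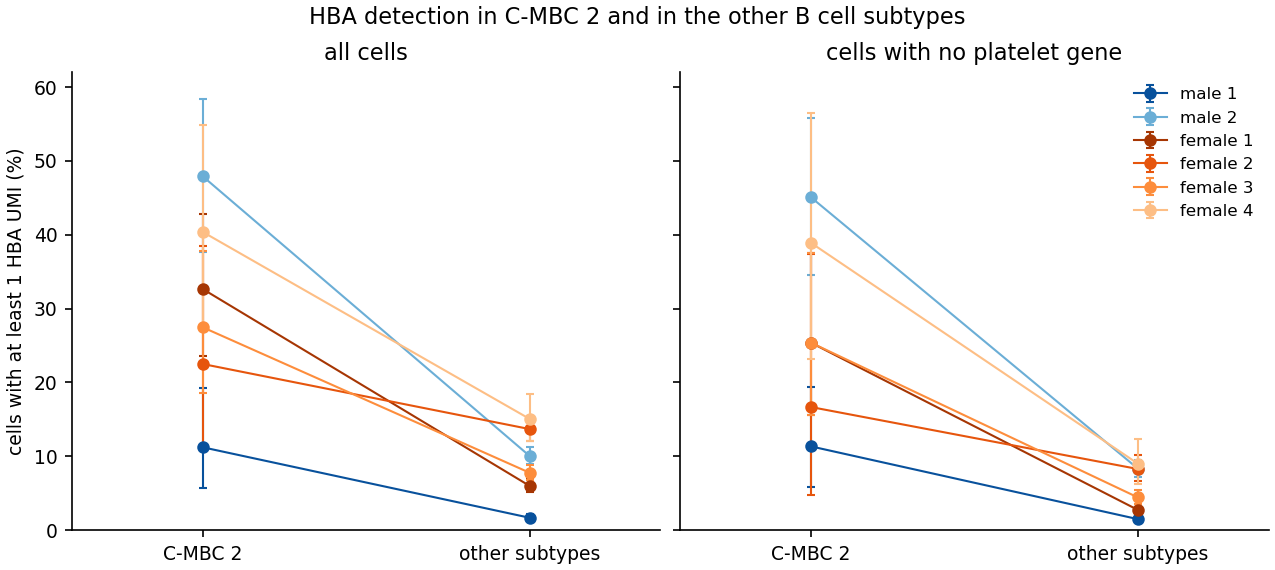
Percent of cells with at least 1 HBA UMI in C-MBC 2 and in all other B cell subtypes of the same animal, with exact 95% binomial intervals, for all cells (left) and for cells with no platelet gene (right). Each of the 6 animals is higher in C-MBC 2, with means of 30.4% against 9.04% on the left and 27.1% against 5.71% on the right.

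Antibody class, read from the BCR library, was compared next. In switched (IgG, IgA or IgE) B cells PPBP was at 75.0, 101, 57.9 and 93.5 CPM in females 1 to 4 and at 8.98 and 36.9 in males 1 and 2, against 93.1, 151, 84.4, 133, 6.81 and 37.9 in unswitched (IgM or IgD) cells. PPBP fell by 0.42 ± 0.09 on the log2 scale and PF4 by 0.40 ± 0.10, each lower in 5 of 6 animals (edgeR, adjusted p = 0.0034 and 0.0092), in a comparison that called 25% of 9649 genes, 13.3% as higher and 11.7% as lower. TUBB1, at -0.51 ± 0.27, was not called (adjusted p = 0.2). Neither chemokine gene was called among memory subtypes alone, with PPBP at -0.16 and PF4 at -0.22, or without co-detected cells, with PPBP at -0.29 and PF4 at -0.37. PF4 was also not called without C-MBC 2 and the globin-high cells (-0.33, adjusted p = 0.051). HBA was at 19.4, 34.4, 34.0 and 93.5 CPM in switched cells of the females and at 15.3 and 106 in those of the males, against 14.2, 32.8, 26.6, 52.7, 5.11 and 188 in unswitched cells. It was higher in switched cells of 5 of 6 animals, the exception being male 2, and was not called (0.17 ± 0.19, adjusted p = 0.56). Without the globin-high cells it was called, at 0.63 (adjusted p = 0.0043), and without male 2 at 0.48 (adjusted p = 0.023).

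Among the switched cells HBA was higher in IgA than in IgG cells, in a comparison made after the values by subtype had been seen. HBA was found in 30.1% of 153 IgA cells (exact 95% interval 22.9 to 38.0), against 11.5% of 2217 IgG cells (10.2 to 12.9), 7.14% of 6276 IgM cells (6.51 to 7.80) and 4.95% of 1635 IgD cells (3.95 to 6.12). Median UMIs were 7316 in IgA, 6744 in IgG, 5157 in IgM and 4693 in IgD cells. HBA was at 47.1, 104 and 85.1 CPM in IgA cells of females 1, 3 and 4 and at 34.6 and 274 in those of males 1 and 2, from 4 to 32 UMIs each, against 18.4, 31.0, 97.7, 13.1 and 82.1 in IgG cells. It rose by 1.26 ± 0.26 on the log2 scale, higher in 4 of 5 animals (edgeR, adjusted p = 0.0013), where 13.1% of 6559 genes were called, 5.09% as higher and 7.96% as lower. Female 2, with 8 IgA cells, was left out. Without cells of any platelet gene HBA rose by 1.59 (adjusted p = 0.0019). Of the IgA cells 90 were C-MBC 2 cells, and within C-MBC 2 the difference was 0.45 and not called (adjusted p = 0.58). There HBA was found in 43.3% of 90 IgA cells (32.9 to 54.2), 33.3% of 168 IgG cells (26.3 to 41.0) and 27.9% of 61 IgM cells (17.1 to 40.8), intervals that overlap. Outside C-MBC 2 it was found in 11.1% of 63 IgA cells (4.59 to 21.6) and 9.66% of 2049 IgG cells (8.42 to 11.03). PPBP and PF4 had -0.77 ± 0.32 and -0.84 ± 0.34 in IgA against IgG cells, not called (adjusted p = 0.14 and 0.12).

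B cells with a BCR contig were compared with those without one. PPBP had a log2 difference of -0.33 ± 0.18, PF4 of -0.32 ± 0.21 and HBA of -0.51 ± 0.26, none called, where 5.74% of 8926 genes were, 3.98% as lower (edgeR, adjusted p = 0.26, 0.35 and 0.2). PPBP and PF4 were each higher with a contig in 2 of 6 animals and HBA in 3 of 6. Without the globin-high cells, of which 3 have a contig, HBA was at 0.30.

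The 6 globin-high cells stood apart from all others. All were M-MBC 1 cells of male 2, with 583, 285, 258, 255, 248 and 232 HBA UMIs, while the next highest cell of the 13324 held 20. They also held 436, 301, 301, 289, 313 and 316 UMIs of HBE1, a row named for the epsilon globin of embryonic red cells. No other cell held more than 7 of these. No row was found for beta globin, and whether its UMIs were counted under HBE1 was not tested. Total UMIs per cell were 2526 to 3545, so HBA made up 8.20% to 16.4% and HBE1 11.2% to 12.3% of each. They held 0 UMIs of PPBP, PF4 and TUBB1. ALAS2 was present in 4 of the 6, against 2 of 433 other M-MBC 1 cells of male 2, and AHSP in 2. B cell genes were present, MS4A1 (CD20) in 6 of 6 with 1 to 3 UMIs and CD79A in 5. T cell genes were present too, ICOS in 3 of the 6 cells with 1 to 3 UMIs, CD3E in 2 with 1 UMI each and CD3D in 1 with 2 UMIs. IL22, a cytokine of T cells and innate lymphoid cells, was present in 5 of 6, against 0 of 433. The 6 cells were set apart by 10 or more HBE1 UMIs, so their globin values are a description. They held 78.6% of the HBA UMIs of male 2.

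Of the 6, 3 had a BCR contig, and all 3 carried one and the same productive kappa chain, of IGKV2-65 and IGKJ1, with 4, 6 and 12 UMIs. The chain was found in no other of the 2875 cells of male 2, of which 2485 had a productive light chain. Productive heavy chains were found in 2 of the 3, of IGHV3-30 and of IGHV3-116, each with IGHJ4, and differed in their CDR3, the loop that joins the V and J segments. The CDR3 coding sequences from the BCR contigs are shown because they are what these cells share and where they differ, with the codons of the first and last residue in capitals.
Shared kappa CDR3 of 3 cells: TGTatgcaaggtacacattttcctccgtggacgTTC
Heavy CDR3 of the cell with 583 HBA UMIs: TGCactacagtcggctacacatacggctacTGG
Heavy CDR3 of the cell with 248 HBA UMIs: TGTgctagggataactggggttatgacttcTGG
The genes detected in the 6 cells, globins left out, overlapped by a mean Jaccard index of 0.213 over 15 pairs, against 0.213 ± 0.013 over pairs of 245 other M-MBC 1 cells of male 2 with 2000 to 4000 UMIs. Outside the 6 cells HBE1 was sparse, with 31 UMIs in 29 other cells of male 2, 23 in female 1, 18 in female 2, 4 in female 3, 2 in female 4 and none in male 1.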

How the data were processed

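Mononuclear cells from blood were captured with a 10x 5' kit, and an expression library and a BCR library were made per animal, per the labels' protocols. The authors deposited raw UMI counts per gene and cell, and per contig in the BCR files. The submitters' processing notes name Seurat 5.0.1, Cell Ranger 9.0.1 and R 4.3.1. The genome build is not given in the sources used here, nor is the annotation. Per cell, the deposited table gives percent mitochondrial and ribosomal UMIs, computed by the authors, and their subtype names, which were used as deposited, with names holding MBC taken as memory. Every cell carries the authors' singlet call, so doublets were not called again, and cells were not filtered further.

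Counts were summed per animal and class (10 or more cells) over 16748 named genes without immunoglobulin genes; 5813 unnamed identifiers, 14.9% of UMIs, matched no name and were left out, as were 23 immunoglobulin genes. edgeR 4.0.16 (filterByExpr, TMM, quasi-likelihood F test, animal as block, Benjamini-Hochberg) in R 4.3.3 tested the sums. A gene is called at an adjusted p under 0.05; ± beside a log2 difference is its SE. Pairing comes from classes sharing an animal. Members that chose a class were left out of its test. DESeq2 1.42.0 was an alternative. Steps were tested on simulated data. Expected co-detection was summed over animals and 10 depth classes; 467 B cells under 2000 UMIs were left out when thinning. Intervals are exact binomial and cover counting error only.

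Named genes were the 4 members and, for the comparisons of co-detected and of HBA-detected cells, up to 8 higher and 4 lower genes with the largest change (mean log2 CPM of 4 or more, same direction in every animal), 10 platelet, 6 red cell and 2 of each other list by p; and, per member, 8 genes by odds ratio and 5 by correlation. Some genes that this rule names are not reported here. Members and lists were chosen with earlier results of these data known.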

Additional observations from a re-analysis of the deposited data

Results flagged for a closer look

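HBA in B cells of male 2, at 183 raw CPM against 55.3 in the next animal, lay far from the other 5, as did HBA in its M-MBC 1 cells, at 1079 against 58.6 raw CPM. Both fell into the range of the others without the 6 globin-high cells, at 39.3 in all B cells. HBA in C-MBC 2 cells of male 2, at 230 against 72.8 raw CPM in the next animal, also stood apart, and holds none of the 6 cells. In CD11c+ MBC 2 it was female 4 that stood apart, at 115 against 47.4 raw CPM. In Naive B cells 3 HBA was found in female 3, at 28.1 raw CPM, from 3 UMIs in 57 cells. It was at 0 in the 3 other animals with 10 or more such cells, which had 13 to 22 of them. Females 1 and 2, left out with 8 and 5 such cells, held 4 and 1 HBA UMIs (190 and 78.9 raw CPM). In all 40 groups of 4 to 6 animals were examined, 5 had such an animal, and chance gives about 1 in 20.

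HBE1, which is in no comparison, had 1956 UMIs in 6 cells of male 2 and at most 7 in any other cell. In the cluster Contamination, left out of the comparisons, 19 of 525 cells were platelet co-detected.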

How the results depend on the processing

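Values are log2 differences unless given as counts, and the cause of each change was not tested. Classes are paired because they come from the same animal. With no replicate block, co-detected cells gave 20 called genes and HBA 1.99 (not called), and HBA-detected cells 5 genes, PPBP 2.61 and PF4 3.08 (neither called). Switched cells then gave HBA -0.12, PPBP -0.42 and PF4 -0.33, and IgA cells HBA 1.16, none called. Sums per subtype with subtype and replicate block gave 17 genes and 7 platelet list genes in co-detected cells, and 18 genes in HBA-detected cells. Without a filter on low counts, co-detected cells gave 122 genes and 28 platelet list genes, and HBA-detected cells 552. HBA-detected cells gave 215 genes with unnamed and immunoglobulin genes kept, 171 with 2 or more HBA UMIs, and 100 without C-MBC 2. DESeq2 called PPBP at -2.38, PF4 at -2.54 and TUBB1 at -2.85 between the sexes.

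Without the globin-high cells, an alternative chosen after seeing the data as was every one leaving out C-MBC 2, HBA was -0.37 between the sexes, 0.63 in switched cells and 0.30 with a BCR contig. In switched cells PF4 was -0.33 without C-MBC 2 and the globin-high cells. Among memory subtypes alone HBA was -0.031, PPBP -0.16 and PF4 -0.22, and without co-detected cells PPBP was -0.29 and PF4 -0.37. Within C-MBC 2 the difference of IgA from IgG cells in HBA was 0.45. PF4 in Activated B cells was -0.040 without co-detected cells, and 10.8% of thinned C-MBC 2 cells held HBA.

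The mean log2 of observed over expected cells was, thinned and with 2 UMIs required, 2.16 and 2.67 for HBA and PF4, 1.93 and 2.26 for HBA and PPBP, 2.00 and 1.86 for PF4 and TUBB1, 2.42 and 2.84 for PPBP and PF4, and 1.82 and 1.65 for PPBP and TUBB1. Leaving out 1 animal at a time it ranged from 1.53 to 1.68, 1.14 to 1.37, 2.03 to 2.25, 1.74 to 2.21 and 1.63 to 1.71 for these pairs in that order, and the exact test over 5 animals cannot go below 0.0625. With 2 UMIs required, males 1 and 2 had no TUBB1 cell and could show no excess in the TUBB1 pairs. The other ranges were 166 (without male 2) to 393 genes in HBA-detected cells, with 210 without female 3. Between the sexes they were -2.58 to 2.69 for HBA, -3.99 to -1.64 for PPBP, -4.34 to -1.77 for PF4 and -3.76 to -2.27 for TUBB1. HBA ranged from 0.052 to 0.48 in switched cells and from -0.90 to 0.050 with a BCR contig. Of the other 153 values under alternatives, the tested ones kept their direction and their side of the threshold. Among them, counts of genes stayed close to the main count. Subtype values, which have no test, kept their direction and moved by less than their SD between animals. Outside C-MBC 2 HBA did not pass the filter in IgA against IgG cells, so no value was had. TUBB1 and HBA rest on few UMIs per cell, and a UMI seen once limits what a single cell can show.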
